A study of Mus musculus with 3 samples.

Results

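The 10 genes described here code for enzymes that modify or cross-link collagen: the lysyl oxidases *Lox*, *Loxl1*, *Loxl2* and *Loxl3*, the lysyl hydroxylases *Plod1*, *Plod2* and *Plod3*, and the catalytic alpha subunits of prolyl 4-hydroxylase *P4ha1*, *P4ha2* and *P4ha3*. They were taken as a list by name, matched through their Ensembl identifiers, from the 32285 genes of the count files, and all 10 were found. The data are droplet-based single-cell transcriptomes of skin wounds from adult male C57BL/6J mice, an inbred wild-type strain, taken 3, 7 and 14 days after injury (Day 3, Day 7 and Day 14), in a study of how the cells of the wound change during repair. All 3 libraries came from the same strain with no treatment other than wounding, and each was made from unsorted cells of pooled wounds. There was 1 library per day and no unwounded skin, so a difference between days is a difference between 2 libraries, has no replicate check, and no p-value is given.

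Collagen is modified in 2 places. Inside the endoplasmic reticulum, prolyl 4-hydroxylases, tetramers of catalytic alpha subunits and the beta subunit *P4hb*, hydroxylate prolines so that the triple helix is stable at body temperature, and lysyl hydroxylases hydroxylate lysines that later carry sugars or take part in cross-links. Both use molecular oxygen, iron and ascorbate. Outside the cell, lysyl oxidases, which are copper enzymes, turn lysines and hydroxylysines into aldehydes that join neighbouring collagen or elastin molecules, and *Plod2* is known for the hydroxylation of telopeptide lysines that leads to the stable cross-links found in scars and fibrotic tissue.

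The libraries held 38133650 to 120940799 UMIs (unique molecular identifiers, each marking 1 captured mRNA molecule) before filtering. Cells were grouped into classes from marker genes, and a class is called "X-like" because it rests on transcripts alone. None of the 10 genes, nor any collagen gene, was used to form the clusters. The fibroblast-like class had 410 of 4353 Day 3 cells, 5853 of 19453 Day 7 cells and 6650 of 13507 Day 14 cells. The 8 fibroblast markers summed to 8927, 13032 and 15711 CPM in this class on the 3 days. These markers also set the class name and are no separate check of it. The median depth of fibroblast-like cells was 44189 UMIs on Day 3 against 10320.0 and 10259 on Days 7 and 14. Their median share of mitochondrial UMIs was also lower on each later day, at 3.68%, 2.41% and 1.54%, and its part in the differences below was not tested. Counts over cells of 5000 to 20000 UMIs alone, 36, 5161 and 5599 cells on the 3 days, are given below for the steps from Day 3 to Day 7 and from Day 7 to Day 14, an alternative chosen after the data were seen. Levels are CPM, a gene's UMIs per 1000000 summed UMIs of a class. Intervals in parentheses are 95% intervals, exact Poisson for CPM and exact conditional binomial for ratios, and they cover counting error only, without the spread between cells, wounds or libraries. UMIs count transcript ends and not fragments, so a level carries no length term, but capture differs between genes, and shares of a family are therefore followed only from day to day.

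Most UMIs of each of the 10 genes lay in fibroblast-like cells. On Day 7 these cells held 63.3% of all UMIs and 97.2% of the UMIs of 5 fibrillar collagen chains (*Col1a1*, *Col1a2*, *Col3a1*, *Col5a1* and *Col5a2*). Their share on that day was 97.1% for *Lox*, 97.0% for *Plod2* and 96.3% for *P4ha2*, close to that of collagen itself. It was lower for *Plod1* (76.4%), *Plod3* (77.6%) and *P4ha1* (78.4%), the 3 lowest shares, with the other 7 between 92.0% (*Loxl3*) and the value of *Lox*. In the whole libraries, over all classes, *Lox* stood at 1295, 430.1 and 415 CPM on Days 3, 7 and 14 and *Plod2* at 542, 214 and 63.5 CPM, values that also carry the changing share of fibroblast-like cells.

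The lysyl oxidases were highest on Day 3 in fibroblast-like cells, and each kept its own course afterwards. *Lox* (ENSMUSG00000024529), the founding member of the family, stood at 2286 (2265 to 2308), 660.2 (654 to 667) and 559 (553 to 564) CPM on Days 3, 7 and 14. Nearly all of its difference lay between Days 3 and 7, with a log2 ratio of -1.79 (-1.81 to -1.77), against -0.24 (-0.26 to -0.22) between Days 7 and 14. *Loxl1* (ENSMUSG00000032334, chr9:58287738-58313186, minus strand), best known for its need in elastic fibre upkeep, was the steadiest of the 4, at 854 (841 to 867), 662 (655 to 668) and 536 (530.2 to 541) CPM. Its log2 ratios were -0.37 (-0.39 to -0.34) and -0.31 (-0.33 to -0.28), under 2-fold in both steps. *Loxl2* (ENSMUSG00000034205, chr14:69609068-69695834, plus strand), which also acts on the collagen IV of basement membranes, was lower at each step, with 1417 (1401 to 1434), 511 (505 to 517) and 253 (249.7 to 257) CPM on Days 3, 7 and 14. The log2 ratios were -1.47 (-1.49 to -1.45) and -1.01 (-1.04 to -0.98), the second at the edge of the 2-fold limit. *Loxl3* (ENSMUSG00000000693, chr6:83034173-83052562, plus strand) stood at 176 (170.0 to 182), 75.3 (73.1 to 77.4) and 22.6 (21.5 to 23.7) CPM, with log2 ratios of -1.22 (-1.29 to -1.16) and -1.74 (-1.82 to -1.65). The 4 genes together took 4733, 1908 and 1370.2 CPM on Days 3, 7 and 14. Within that sum the makeup moved: *Loxl1* was 18.0% of lysyl oxidase UMIs on Day 3 and 39.1% on Day 14, while *Loxl2* went from 29.9% to 18.5%.

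Among the lysyl hydroxylases, *Plod2* had the steepest course of all 10 genes and *Plod1* one of the flattest over all fibroblast-like cells together. *Plod2* (ENSMUSG00000032374, chr9:92542223-92608428, plus strand), the telopeptide lysyl hydroxylase, stood at 959 (946 to 973), 328 (324 to 333) and 81.1 (79.0 to 83.3) CPM on Days 3, 7 and 14. It was lower at both steps, with log2 ratios of -1.55 (-1.58 to -1.52) and -2.02 (-2.06 to -1.97), and Day 3 was 11.8-fold above Day 14. *Plod1* (ENSMUSG00000019055, chr4:147909753-147936767, minus strand), which hydroxylates lysines of the helical part of collagen, was at 136 (131 to 141), 102 (99.4 to 104) and 85.2 (83.1 to 87.4) CPM, with log2 ratios of -0.42 (-0.48 to -0.35) and -0.26 (-0.31 to -0.21). *Plod3* (ENSMUSG00000004846, chr5:136987019-136996648, plus strand), which also adds sugars to hydroxylysine, was at 224 (217 to 230.3), 95.9 (93.5 to 98.3) and 48.2 (46.6 to 49.9) CPM, with log2 ratios of -1.22 (-1.28 to -1.17) and -0.99 (-1.05 to -0.93). *Plod2* thus supplied 72.7% of the UMIs of the 3 genes on Day 3, 62.4% on Day 7 and 37.8% on Day 14, and *Plod1* went from 10.3% through 19.4% to 39.7%. The study named *Plod2* and *Loxl2* among the genes of a fibroblast subcluster in these same libraries, so their differences between fibroblast groups here are not independent of that choice.

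**Figure D1:**
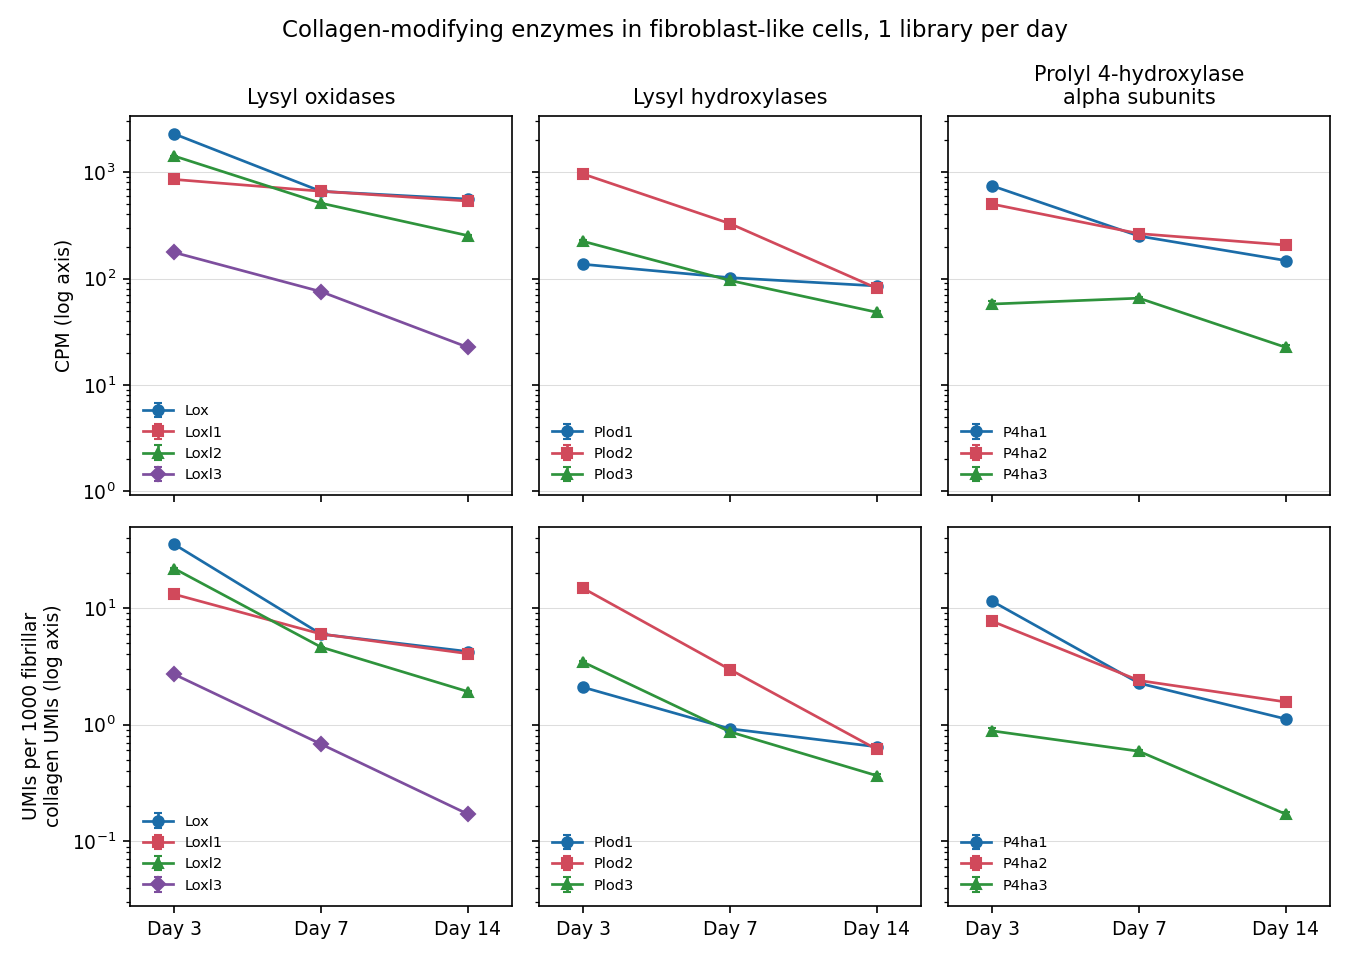
Level of each gene in fibroblast-like cells on Days 3, 7 and 14, by enzyme family, as CPM (upper panels) and as UMIs per 1000 UMIs of 5 fibrillar collagen chains (lower panels), both on log axes with 95% counting intervals, 1 library per day. *Plod2* goes from 959 to 81.1 CPM while *Plod1* stays between 85.2 and 136 CPM.

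The 3 prolyl 4-hydroxylase alpha subunits, which do the same chemistry, differed in the size of their ratios between days. Of these, *P4ha1* and *P4ha2* were lower at both steps and *P4ha3* mainly at the second. *P4ha1* (ENSMUSG00000019916, chr10:59323296-59373304, plus strand), the widely expressed subunit, stood at 743 (731 to 755), 251 (247 to 255) and 148 (145 to 150.5) CPM on Days 3, 7 and 14, with log2 ratios of -1.57 (-1.60 to -1.54) and -0.76 (-0.80 to -0.73). *P4ha2* (ENSMUSG00000018906, chr11:54100095-54131665, plus strand) was at 501 (491 to 511), 264 (260.3 to 268) and 207 (203 to 209.9) CPM, with smaller log2 ratios of -0.92 (-0.96 to -0.89) and -0.36 (-0.39 to -0.32). *P4ha3* (ENSMUSG00000051048, chr7:100285520-100319699, plus strand) was the only member of the 10 above its Day 3 level on Day 7, with 57.6 (54.3 to 61.0) CPM on Day 3 and 65.4 (63.4 to 67.4) on Day 7, a log2 ratio of 0.18 (0.09 to 0.28). This direction was not kept in fibroblast-like cells of 5000 to 20000 UMIs, where the log2 ratio was -0.04 over 36 Day 3 cells. On Day 14 *P4ha3* stood at 22.5 (21.4 to 23.7) CPM, a log2 ratio to Day 7 of -1.54 (-1.62 to -1.45). *P4ha1* supplied 57.1% of alpha subunit UMIs on Day 3 and 39.2% on Day 14, and *P4ha2* 38.5% and 54.8%.

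Promoter sequences were available for *Plod1*, *Plod3*, *P4ha1*, *P4ha2* and *P4ha3*. The windows of the 3 alpha subunits are shown because these genes do the same chemistry and differed in the size of their ratios between days. The sequences are RefSeq promoters of build GRCm38.p6, from 250 bases before to 50 bases after the start of the gene, read 5′ to 3′ on the gene's strand. The RefSeq start of *P4ha2* lies inside the gene span of the annotation given above. Capitals mark each ACGTG or GCGTG on either strand, the core letters of elements that hypoxia-inducible factors can bind, and all other bases are in lower case.
*P4ha1* (chr10:59323046-59323345, plus strand): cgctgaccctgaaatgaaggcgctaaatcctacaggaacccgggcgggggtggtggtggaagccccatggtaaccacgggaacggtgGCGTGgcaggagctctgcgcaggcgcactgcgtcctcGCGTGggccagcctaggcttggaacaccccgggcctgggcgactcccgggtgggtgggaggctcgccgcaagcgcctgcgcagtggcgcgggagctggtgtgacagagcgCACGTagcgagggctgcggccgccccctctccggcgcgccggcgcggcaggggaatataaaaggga
*P4ha2* (chr11:54100674-54100973, plus strand): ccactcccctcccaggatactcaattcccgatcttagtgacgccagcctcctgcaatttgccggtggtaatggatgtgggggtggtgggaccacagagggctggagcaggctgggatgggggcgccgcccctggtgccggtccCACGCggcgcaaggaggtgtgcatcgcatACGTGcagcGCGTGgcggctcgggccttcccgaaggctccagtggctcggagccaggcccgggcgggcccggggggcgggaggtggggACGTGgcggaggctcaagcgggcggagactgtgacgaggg
*P4ha3* (chr7:100285270-100285569, plus strand): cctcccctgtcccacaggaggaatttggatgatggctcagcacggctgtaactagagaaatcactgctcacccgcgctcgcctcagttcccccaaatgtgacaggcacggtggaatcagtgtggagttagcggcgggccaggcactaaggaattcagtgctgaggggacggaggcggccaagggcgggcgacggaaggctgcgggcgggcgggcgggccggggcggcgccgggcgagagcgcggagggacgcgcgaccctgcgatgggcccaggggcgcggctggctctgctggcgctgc

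ACGTG was found 1 time in the *P4ha1* window, 2 times in *P4ha2* and 0 times in *P4ha3*, and GCGTG 2, 2 and 0 times. The *Plod3* window held 1 ACGTG and 3 GCGTG, and the *Plod1* window 0 and 2. Of all 32851 promoters of the same length, 19.6% held ACGTG and 32.4% held GCGTG on either strand, so such matches are common. TATAAA, searched in the same way, was found once in *P4ha1* and once in *Plod1* (13.6% of all promoters), and GGGCGG in each window but that of *Plod3* (35.7% of all promoters). No base was shared by matches to different motifs. A match is a run of letters and not a shown binding site.

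Read as a list, the 10 genes had a lower median ratio than all genes in both steps between days. All 10 passed a filter of a mean of at least 5 CPM in the 2 libraries compared. From Day 3 to Day 7, 6 of 10 were at least 2-fold lower by CPM (*Lox*, *Loxl2*, *Loxl3*, *Plod2*, *Plod3* and *P4ha1*), beside 9.38% of the 9508 genes that passed the filter. None of the 10 was 2-fold higher, beside 4.94% of all genes. The median log2 ratio was -1.22 over the 10 and -0.19 over all genes. From Day 7 to Day 14, 4 of 10 were at least 2-fold lower (*Loxl2*, *Loxl3*, *Plod2* and *P4ha3*), beside 4.62% of 9198 genes, and none was 2-fold higher, beside 2.74%. Over the whole span, from Day 3 to Day 14, 8 of 10 were at least 2-fold lower, all but *Loxl1* and *Plod1*, beside 21.9% of all genes, and none was 2-fold higher, beside 8.02%. For Day 14 over Day 7 the medians were -0.88 over the 10 and -0.18 over all genes. *Loxl1*, *Plod1* and *P4ha2* were the 3 members under 2-fold in both steps. In cells of 5000 to 20000 UMIs, 7 of 10 were at least 2-fold lower from Day 3 to Day 7, with *P4ha2* added at -1.15, beside 11.5% of all genes in the same cells. From Day 7 to Day 14, 3 of 10 were, beside 4.31%, with *Loxl2* at -0.98. *Plod1*, at -0.08 in these cells for Day 7 over Day 3, was then near level.

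Against the amount of collagen mRNA in the same cells, the enzymes were scarcer still on the later days. The 5 fibrillar chains together made up 6.53%, 11.1% and 13.2% of the class's UMIs on Days 3, 7 and 14, while the 10 enzyme genes made up 0.735%, 0.301% and 0.196%. There were thus 113, 27.2 and 14.8 enzyme UMIs per 1000 fibrillar collagen UMIs on Days 3, 7 and 14. By family, the sums per 1000 collagen UMIs were 72.5, 17.2 and 10.4 for lysyl oxidases, 20.2, 4.75 and 1.62 for lysyl hydroxylases, and 19.9, 5.24 and 2.85 for the alpha subunits.

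On this scale 9 of 10 genes were at least 2-fold lower on Day 7 than on Day 3, all but *P4ha3*, beside 46.9% of all genes, whose median log2 ratio was itself -0.96 because the collagen sum is the divisor. The median of the 10 was -1.99. From Day 7 to Day 14, 6 of 10 were at least 2-fold lower (*Loxl2*, *Loxl3*, *Plod2*, *Plod3*, *P4ha1* and *P4ha3*), beside 9.18%, with medians of -1.13 for the 10 and -0.43 for all genes. In cells of 5000 to 20000 UMIs, 10 of 10 were at least 2-fold lower in the first step, beside 57.9% of all genes there, and 5 of 10 in the second, beside 8.28%. Over cells of every depth none was 2-fold higher in either step, beside 1.64% and 1.75% of all genes. From Day 3 to Day 14, 10 of 10 were at least 2-fold lower and none higher, beside 68.3% and 2.69% of all genes. *Plod2* went from 14.7 through 2.96 to 0.613 UMIs per 1000 collagen UMIs, so that Day 3 was 23.9-fold above Day 14. *Lox* went from 35.0 through 5.96 to 4.22, 8.29-fold, and *Loxl1* from 13.1 through 5.97 to 4.05, 3.23-fold. Among the chains, *Col1a1* stood at 22594, 41457 and 52176 CPM, with *Col5a1* at 1140.0, 2141 and 1454 CPM.

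**Figure D2:**
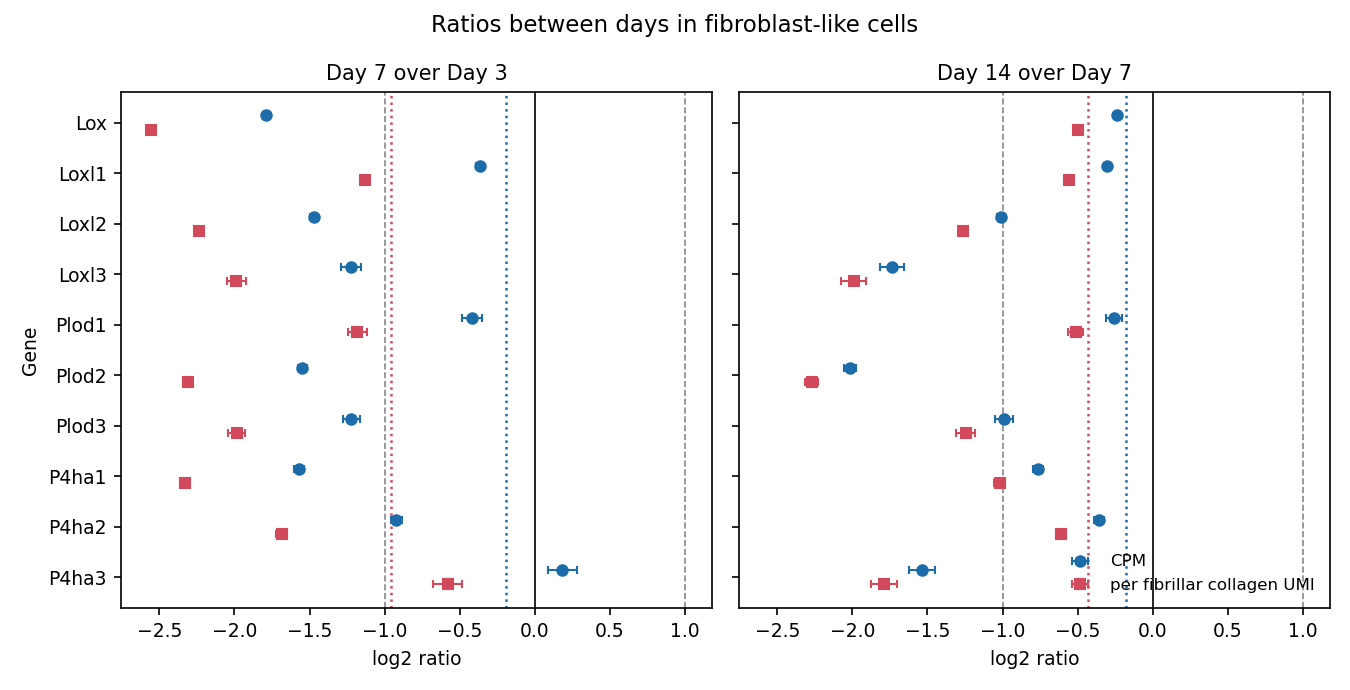
Log2 ratio between days in fibroblast-like cells for each of the 10 genes, by CPM (circles) and per fibrillar collagen UMI (squares), with 95% counting intervals. Dashed lines mark 2-fold and dotted lines the median of all genes on the same scale. *Lox* lies at -1.79 by CPM for Day 7 over Day 3 but near the median of all genes for Day 14 over Day 7, while *Plod2* lies far below it in both.

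The other genes of collagen processing, 24 listed by their known roles, did not move as one block. Of these, 20 passed the filter (not *P3h2*, *Colgalt2*, *Tll1* and *Adamts3*). From Day 3 to Day 7, 4 of 20 were at least 2-fold lower by CPM: *P4hb*, the beta subunit that partners the 3 P4ha subunits, *P3h4* and *Fkbp10*, which act with lysyl hydroxylases in the endoplasmic reticulum, and *Loxl4*, beside 9.38% of all genes. Of the 20, only *Tgm2*, a transglutaminase, was at least 2-fold higher, beside 4.94% of all genes. The median log2 ratio over the 20 was -0.47. From Day 7 to Day 14, *Adamts14*, a procollagen N-proteinase, was the 1 gene of 20 at least 2-fold lower, beside 4.62% of all genes, and *Pcolce2*, an enhancer of procollagen C-proteinase, the 1 gene at least 2-fold higher, beside 2.74%. The median over the list was then -0.17. *P4hb* stood at 1104, 495 and 283 CPM and *Fkbp10* at 516, 196 and 100.3 CPM, courses like those of *P4ha1* and *Plod3*. The opposite order was seen for *Pcolce*, which goes with C-propeptide removal outside the cell (355, 625 and 773 CPM), for *Ppib*, a prolyl isomerase (507, 747 and 912 CPM), and for *Adamts2*, another N-proteinase (217, 416 and 475 CPM). *Serpinh1*, the collagen chaperone, stood at 5113, 3260.2 and 2585 CPM.

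The 10 genes differed in how far their level in fibroblast-like cells stood above that in other classes. Against macrophage-like cells, the most numerous immune class, 10 of 10 genes were at least 2-fold higher in fibroblast-like cells on Day 3, 7 on Day 7 and 8 on Day 14, beside 27.2%, 20.4% and 20.4% of all genes. *Lox* was at 14.9 (12.8 to 17.2), 23.3 (21.5 to 25.2) and 25.1 (22.4 to 28.1) CPM in macrophage-like cells on Days 3, 7 and 14, which is 154, 28.4 and 22.3-fold under fibroblast-like cells. *P4ha1* was at 208 (199 to 216), 129 (124 to 133) and 81.1 (76.1 to 86.3) CPM, only 3.58, 1.94 and 1.82-fold under them. The members that did not reach 2-fold were *Plod1*, *Plod3* and *P4ha1* on Day 7 and *Plod3* and *P4ha1* on Day 14. With all classes of at least 50 cells put in order of level, fibroblast-like cells came first for 10 genes on Day 3, 8 on Day 7 and 9 on Day 14, and their interval was apart from that of the next class for 10, 7 and 6 of them. The orders held 4 classes on Day 3 and 8 on Days 7 and 14, so these counts cannot be compared between days. Pericyte-like and endothelial cell-like cells, 10 and 13 in number on Day 3, were not ranked on that day. The same counts were not made over all genes. Of all neighbouring pairs in these orders, 14 of 30, 52 of 70 and 47 of 70 overlapped on Days 3, 7 and 14.

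In droplet data, free RNA from 1 cell type can be counted in others, and fibrillar collagen was itself found in macrophage-like cells at 400.4, 3468 and 5132 CPM on Days 3, 7 and 14. The UMIs of each enzyme in a class were therefore set against the number that its collagen UMIs would bring at the enzyme to collagen ratio of fibroblast-like cells in the same library. In macrophage-like cells this ratio of found to expected was 1.06, 1.13 and 1.16 for *Lox* on Days 3, 7 and 14, 0.836, 1.00 and 1.17 for *Loxl2*, and 1.14, 0.949 and 0.883 for *Plod2*. The counts of these genes in macrophage-like cells were thus near the number that went with the collagen UMIs there. *Loxl3* was 4.65, 3.00 and 4.76 times its expected number. Far above it were *Plod1* at 72.8, 17.3 and 8.58 times, *Plod3* at 52.3, 17.0 and 19.97 times, and *P4ha1* at 45.6, 16.4 and 14.2 times. *P4ha1* was also found in neutrophil-like cells at 259.5 (231 to 290.4) CPM on Day 3, 28.7 times the expected number, where *Lox* was at 0.826 times.

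*P4ha1* and *Plod3* were also lower at each step in macrophage-like cells, where the log2 ratios of *P4ha1* were -0.69 (-0.76 to -0.61) for Day 7 over Day 3 and -0.67 (-0.77 to -0.57) for Day 14 over Day 7. *Plod3* there was -0.49 (-0.62 to -0.37) and -0.45 (-0.60 to -0.29), and *Plod1* -0.14 (-0.27 to -0.01) and -0.96 (-1.13 to -0.79), so that *Plod1* was nearly level in the first step. The macrophage-like class was made of different clusters on the 3 days: cluster 5 held 2063 of its 2560 cells on Day 3 and 715 and 27 later, cluster 3 held 2944 of 8508 on Day 7, and cluster 7 held 1425 of 2993 on Day 14. In dendritic cell-like cells all 3 genes were lower at both steps, with *P4ha1* at -0.90 (-1.18 to -0.62) and -0.45 (-0.79 to -0.12), *Plod3* at -0.94 (-1.44 to -0.42) and -0.52 (-1.16 to 0.10), and *Plod1* at -0.86 (-1.61 to -0.10) and -1.20 (-2.38 to -0.15), where the second interval of *Plod3* held 0. In neutrophil-like cells *P4ha1* was -1.13 (-1.42 to -0.85) for Day 7 over Day 3, but *Plod1* was 2.16 (1.04 to 3.47), from 8 to 39 UMIs, and *Plod3* 1.53 (0.25 to 3.00), from 7 to 22 UMIs. Fibrillar collagen in these cells went from 795 to 9935 CPM over that step, and the UMIs found were 4.11 and 3.33 times the number expected with collagen for *Plod1* and 2.19 and 1.99 times for *Plod3*. For Day 14 over Day 7 *Plod1* was -1.05 (-1.39 to -0.71) in endothelial cell-like and 1.63 (0.09 to 3.44) in T cell-like cells, the latter from 5 to 15 UMIs. Collagen in T cell-like cells went from 6369 to 16811 CPM, and *Plod1* there was at 1.204 and 2.01 times its expected number. The part of free RNA in these low counts was not tested. The interval of *P4ha1* in that step held 0 in pericyte-like, endothelial cell-like, mesenchymal cell-like and T cell-like cells.

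**Figure D3:**
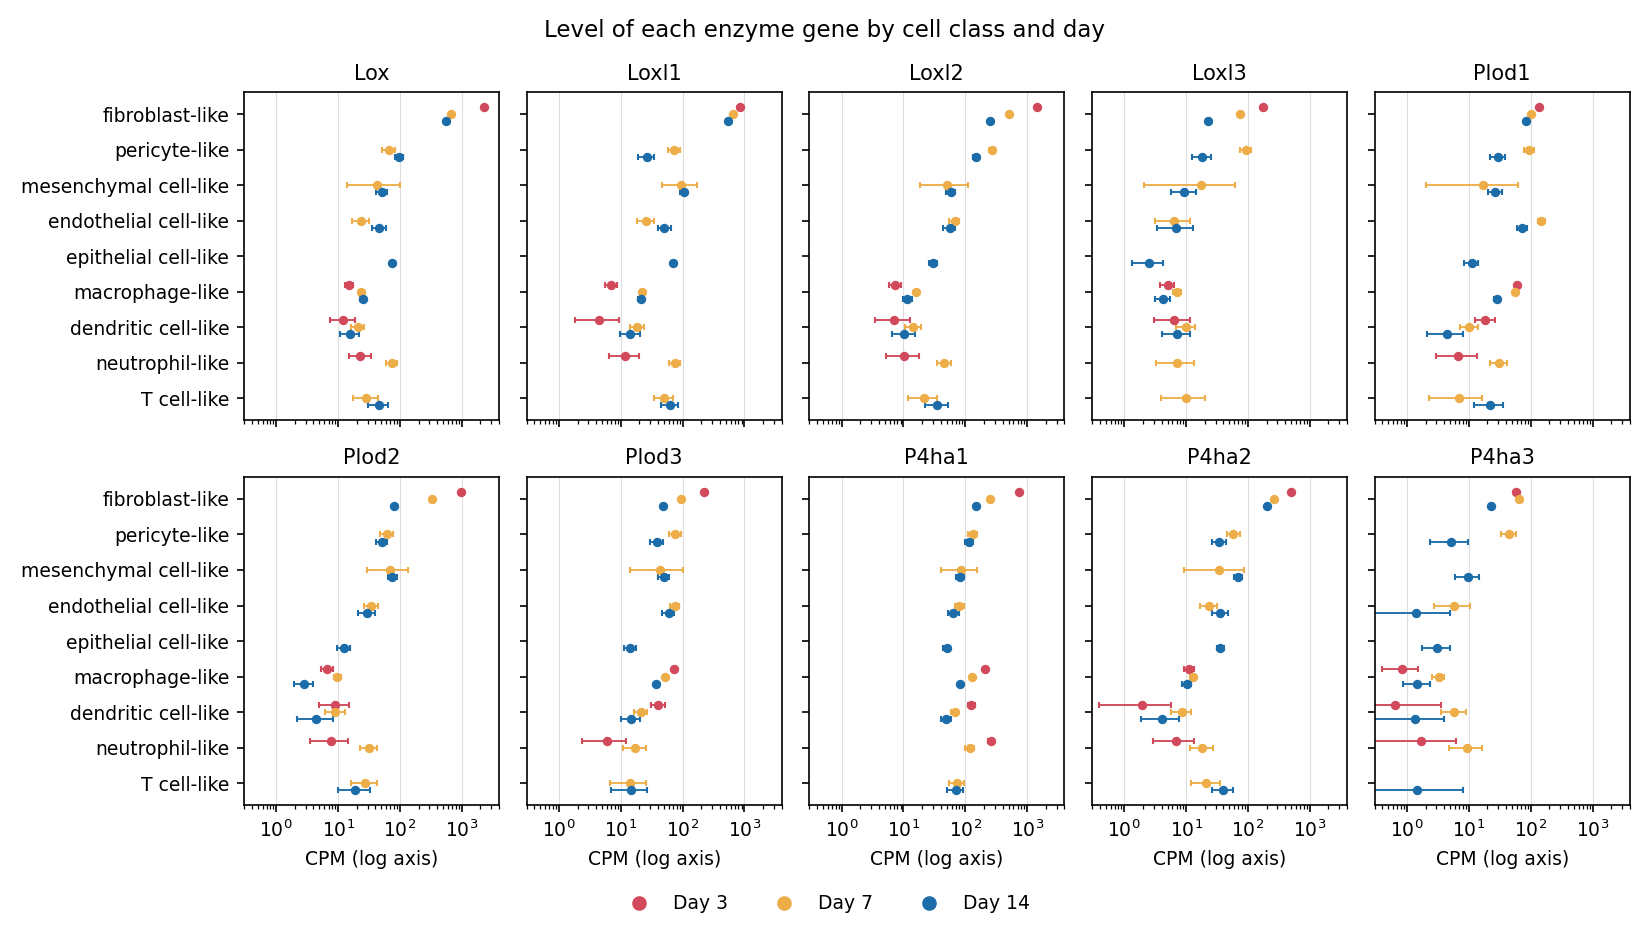
CPM of each gene (log axis) in each cell class with at least 50 cells, by day, with 95% counting intervals; classes at 0 UMIs have no point. *Lox* lies at 559 to 2286 CPM in fibroblast-like cells and at 97.1 CPM or less in every other class plotted, whereas *P4ha1* lies at 49.4 CPM or more in every class.

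Some members stood out in vessel-associated and other mesenchymal classes. *Loxl2* was second to fibroblast-like cells in pericyte-like cells, at 270.3 (241 to 302) CPM on Day 7 and 150.4 (133 to 169.6) on Day 14, 3.27 and 5.54 times the number expected from collagen. *Loxl3* in pericyte-like cells on Day 7, at 91.8 (75.2 to 111) CPM, lay beside 75.3 (73.1 to 77.4) CPM in fibroblast-like cells, with overlapping intervals, and was 18.2 (12.4 to 25.6) CPM on Day 14. *P4ha3* in the same class was at 44.2 (32.9 to 58.1) CPM on Day 7 but 5.11 (2.34 to 9.70) on Day 14. *Plod1* was highest in endothelial cell-like cells on Day 7, at 149.7 (132 to 169) CPM against 102 (99.4 to 104) in fibroblast-like cells, with intervals apart, and at 72.4 (59.2 to 87.7) CPM against 85.2 (83.1 to 87.4) on Day 14, with overlapping intervals. Its ratio of found to expected there was 34.4 on Day 7 and 9.12 on Day 14. *Plod2* on Day 14 was at 75.8 (64.6 to 88.2) CPM in mesenchymal cell-like cells, a class named from markers such as *Bmp4* and *Wif1*, against 81.1 (79.0 to 83.3) in fibroblast-like cells, with overlapping intervals, and at 14.8 times its expected number. *Plod3* on Day 14 had its 4 highest classes, endothelial cell-like, mesenchymal cell-like, fibroblast-like and pericyte-like, in an order whose neighbours all overlapped, from 59.2 to 38.6 CPM.

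Against pericyte-like cells, 4 of 10 genes were at least 2-fold higher in fibroblast-like cells on Day 7 and 5 on Day 14, beside 9.22% and 12.3% of all genes, with *Lox*, *Loxl1* and *P4ha2* among them on both days. Against endothelial cell-like cells, 8 of 10 were at least 2-fold higher on both days, all but *Plod1* and *Plod3*, beside 12.1% and 12.9%. Against mesenchymal cell-like cells, 10 of 10 were on Day 7, over only 63 such cells and beside 13.6%, and 7 of 10 on Day 14, all but *Plod2*, *Plod3* and *P4ha1*, beside 11.3%. Epithelial cell-like cells of Day 14, whose fibrillar collagen level was 15848 CPM, held *Lox* at 75.3 (68.1 to 83.2) and *Loxl1* at 71.1 (64.1 to 78.7) CPM, 1.13 and 1.11 times the numbers expected. No *P4ha3* UMI was found among 709046 UMIs of T cell-like cells on Day 7, which allows up to 4.23 CPM at a limit of 3 counts, and no *Loxl3* UMI among 1175193 UMIs of neutrophil-like cells on Day 3, which allows up to 2.55 CPM at the same limit.

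In fibroblast-like cells the share of cells with a *Lox* or *Plod2* UMI followed the levels over the 3 days once depth was made equal. With each cell thinned to 500 UMIs, for which no cell was too shallow, *Lox* was found in 66.3% of fibroblast-like cells on Day 3, 25.0% on Day 7 and 21.5% on Day 14, beside 1.39% and 4.11% of neutrophil-like cells on Days 3 and 7 and 1.28% of T cell-like cells on Day 14. Unthinned, *Lox* was found in 99.8%, 92.2% and 85.4% of fibroblast-like cells, whose depth is given above, and in 2.89% and 5.58% of neutrophil-like cells on Days 3 and 7. The median depths of neutrophil-like cells were 1230.0 and 708 UMIs on Days 3 and 7, and that of T cell-like cells on Day 14 was 1848. *Plod2*, thinned, was found in 31.7%, 12.8% and 3.86% of fibroblast-like cells, the last against 1.28% of T cell-like cells. *P4ha1*, thinned, was found in 9.02% of macrophage-like and 11.3% of neutrophil-like cells on Day 3, against 27.3% of fibroblast-like cells.

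The clusters that made up the fibroblast-like class changed from day to day, and the 10 genes differed between them. Cluster 16, led by *Cxcl5*, *Saa3* and *Serpinb2*, held 87.8% of fibroblast-like cells on Day 3 and 7.28% on Day 7. Cluster 4, led by *Tnc*, *Tnn* and *H19*, held 42.6% on Day 7 and 4.56% on Day 14. Cluster 2, led by *Akr1c18*, *C3* and *Pla1a*, held 41.3% and 19.2%, cluster 1, led by *Mgp*, *Cilp* and *Fbln7*, 7.84% and 53.6%, and cluster 10, led by *Igfbp2*, *Gal* and *Wfdc12*, 22.0% on Day 14. The summed level of the 10 genes was 7471 CPM in cluster 16 on Day 3, and on Day 7 3794 CPM in cluster 16, 3503 in cluster 4, 2413 in cluster 2 and 2050.4 in cluster 1. On Day 14 it ran from 1724 CPM in cluster 10 to 2126 in cluster 1, a narrower range. These cluster and day groups, 9 with at least 100 cells, share libraries and are described without a test.

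On Day 7, *Plod2* was at 521 (503 to 539) CPM in cluster 16 and 436 (428 to 443) in cluster 4, but at 194 (188 to 199.6) in cluster 2 and 101 (91.8 to 111) in cluster 1. *Loxl2* on that day was at 788 and 668 CPM in clusters 16 and 4 against 304 and 225 in clusters 2 and 1, and *P4ha1* at 342 and 299 against 188 and 149.8. *Loxl1* had another order, highest in cluster 2 at 733 CPM, then 641 in cluster 16, 629 in cluster 4 and 527 in cluster 1. *Plod1* on Day 7 was highest in cluster 1, at 134 (123 to 146) CPM. The lowest values of *Plod2*, *Loxl3* and *P4ha3* were all in cluster 10 on Day 14, at 13.9 (12.0 to 16.1), 3.16 (2.28 to 4.25) and 6.83 (5.51 to 8.36) CPM, where the fibrillar collagen chains were highest, at 180865 CPM, and where *Lox* stood at 631 (618 to 645) CPM and *P4ha2* at 240.5 (232 to 249) CPM. Cluster 10 was named by its fibroblast score of 4.47, with the mesenchymal cell score second at 3.59. Without cluster 10, an alternative chosen after the data were seen, the log2 ratio for Day 14 over Day 7 in fibroblast-like cells was -1.76 for *Plod2*, -1.47 for *Loxl3* and -1.32 for *P4ha3*.

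**Figure D4:**
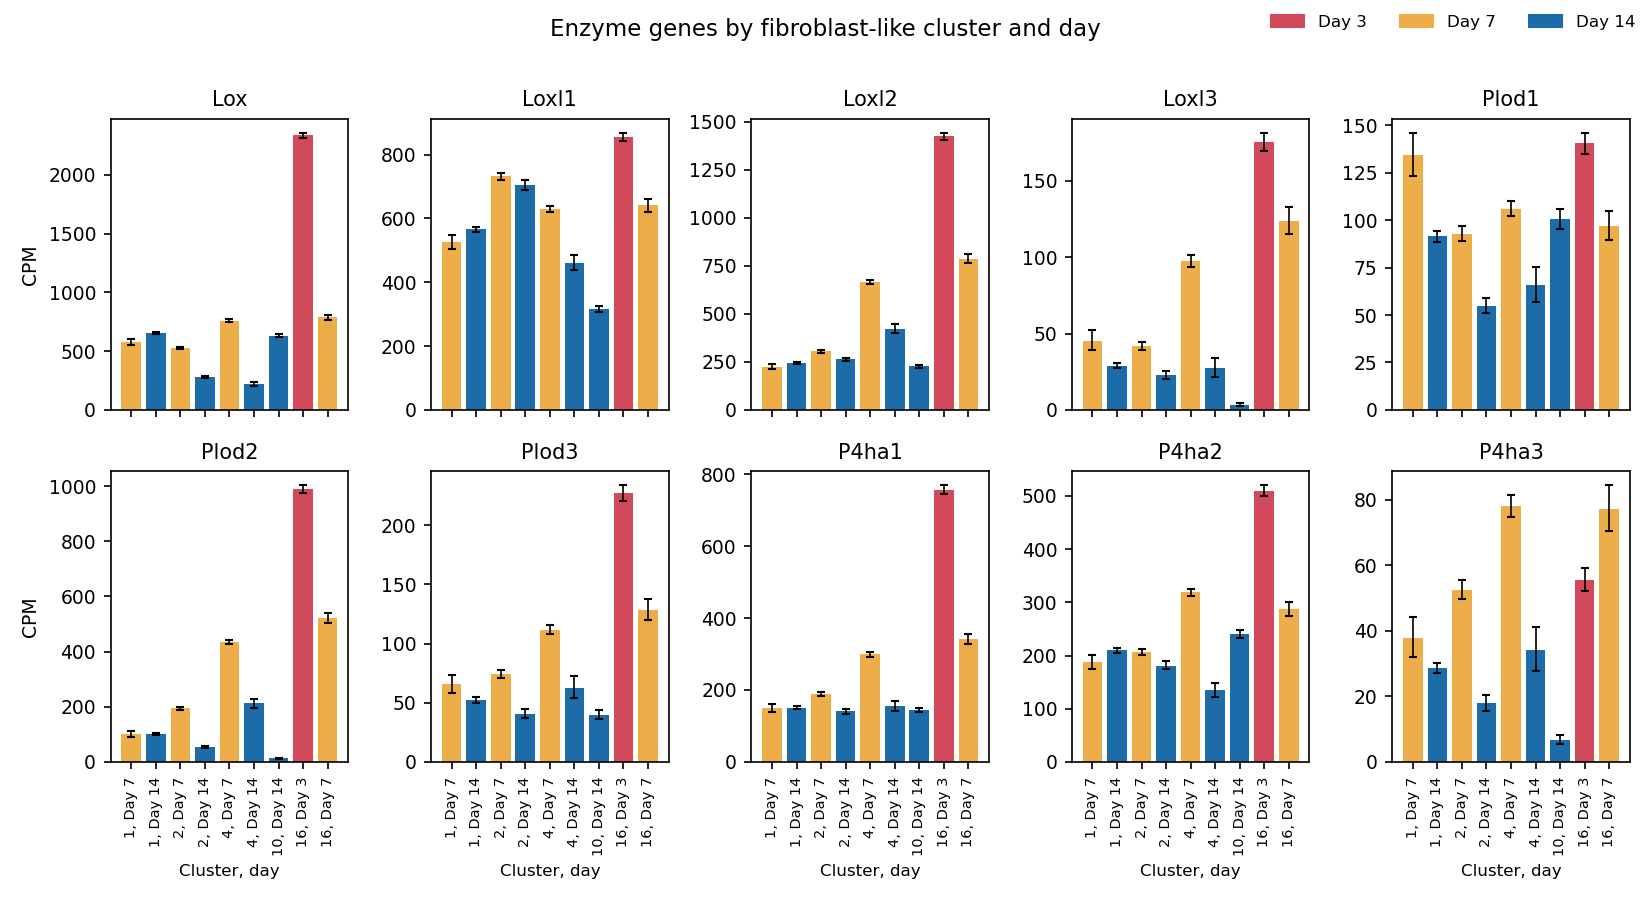
CPM of each gene in each fibroblast-like cluster and day with at least 100 cells; bars start at 0, error bars are 95% counting intervals and colours mark the day. The Day 3 part of cluster 16 is the highest bar for each gene but *P4ha3*, and *Plod2* on Day 7 is 521 and 436 CPM in clusters 16 and 4 against 101 CPM in cluster 1.

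Within single clusters the differences between days were smaller for some genes and larger for others than over all fibroblast-like cells. In cluster 1 the ratio (log2, Day 14 over Day 7) was -0.01 (-0.16 to 0.14) for *Plod2* and 0.13 (0.03 to 0.23) for *Loxl2*, against -2.02 and -1.01 over all fibroblast-like cells, and *Lox* was 0.18 (0.12 to 0.24). In cluster 2 it was -1.81 (-1.93 to -1.70) for *Plod2*, -1.55 (-1.76 to -1.34) for *P4ha3* and -0.91 (-0.97 to -0.86) for *Lox*, with *Loxl1* at -0.06 (-0.09 to -0.02). In cluster 4 it was -1.76 (-1.88 to -1.65) for *Lox*, -1.84 (-2.17 to -1.52) for *Loxl3* and -1.03 (-1.15 to -0.92) for *Plod2*. *Loxl2* was -0.21 (-0.27 to -0.15) in cluster 2 and -0.66 (-0.74 to -0.58) in cluster 4. It was thus under 2-fold within each of clusters 1, 2 and 4. *Lox* was thus 0.18 in cluster 1 and -1.76 in cluster 4 for the same contrast, with -0.24 over all cells. *Plod1*, at -0.26 over all cells, was lower within each of these clusters, at -0.55 (-0.68 to -0.42), -0.76 (-0.88 to -0.63) and -0.69 (-0.90 to -0.49) in clusters 1, 2 and 4. In cluster 16, the one cluster with at least 100 cells on Days 3 and 7, the ratio (log2, Day 7 over Day 3) was -1.57 (-1.61 to -1.53) for *Lox*, -1.15 (-1.21 to -1.08) for *P4ha1*, -0.93 (-0.98 to -0.87) for *Plod2*, -0.85 (-0.90 to -0.81) for *Loxl2* and 0.48 (0.32 to 0.63) for *P4ha3*. *Plod3* there was -0.82 (-0.93 to -0.71) and *Loxl3* -0.50 (-0.62 to -0.39), against -1.22 for each over all fibroblast-like cells. Only *Lox* and *P4ha1* were at least 2-fold lower within this cluster, a count that was not made over all genes there. The median depth of that cluster was 45742 UMIs on Day 3 and 14074 on Day 7. In the same cluster the summed cell cycle genes described below went from 562 to 1398 CPM and the contractile genes from 205 to 1252 CPM. The low oxygen list described below went from 2438 to 866 CPM there. The part of these lists and of depth in the ratios within this cluster was not tested.

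A list of 10 genes known to respond to low oxygen was lower on each later day, as most of the enzymes were. In fibroblast-like cells its summed level was 2389.5, 637 and 303 CPM on Days 3, 7 and 14, and 8 of the 8 genes that passed the filter were at least 2-fold lower on Day 7 than on Day 3, beside 9.38% of all genes, followed by 5 of 7 on Day 14 against Day 7, beside 4.62%. *Pgk1*, a glycolytic enzyme, stood at 831, 136 and 54.1 CPM and *Bnip3*, a mitophagy receptor, at 209.9, 55.1 and 20.2 CPM. Over the 9 cluster and day groups, Pearson's r of log2(CPM + 1) with the summed list was 0.997 for *P4ha1*, 0.966 for *Plod3* and 0.959 for *Loxl2*, and lowest for *Plod1* at 0.529 and *Loxl1* at 0.621. Without the Day 3 group these were 0.990, 0.947, 0.934, 0.247 and 0.440, and for *Lox* the value went from 0.801 to 0.480. The groups share 3 libraries and their depth, so these are descriptions of these data. In macrophage-like cells, where *P4ha1* was also lower at each step, the same list stood at 2445, 974 and 469 CPM. From Day 7 to Day 14 the list was also lower in dendritic cell-like, T cell-like and endothelial cell-like cells. Over that step it went from 497 to 550 CPM in pericyte-like cells and from 496 to 627 CPM in mesenchymal cell-like cells. There the log2 ratios of *P4ha1* were -0.18 (-0.49 to 0.13) and -0.06 (-0.97 to 1.03).

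**Figure D5:**
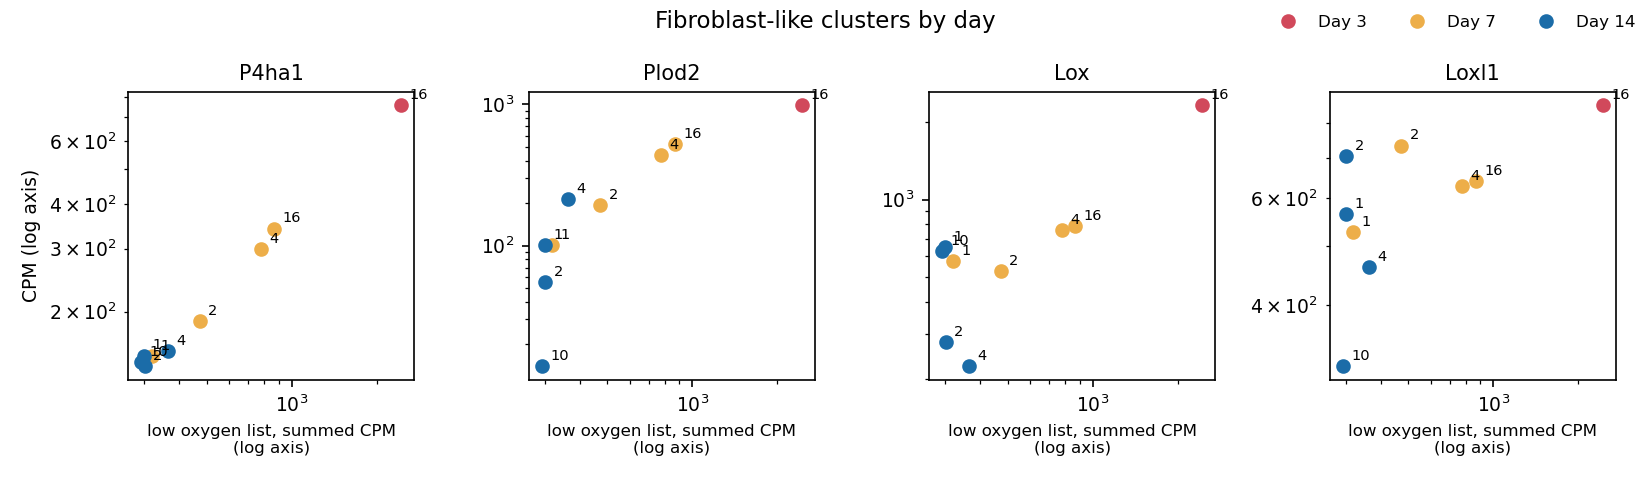
CPM of *P4ha1*, *Plod2*, *Lox* and *Loxl1* against the summed CPM of 10 genes known to respond to low oxygen, both on log axes, in the 9 fibroblast-like cluster and day groups (numbers give the cluster, colours the day). *P4ha1* lies close to a line (r = 0.997 of log2 values) and *Loxl1* does not (r = 0.621).

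Cell cycle and contractile genes differed between the same groups. The summed level of 5 cell cycle genes, *Mki67* among them, was 524, 160.3 and 19.4 CPM in fibroblast-like cells on Days 3, 7 and 14, and that of 6 contractile genes, *Acta2* among them, 208, 544 and 88.0 CPM. On Day 7 the contractile list stood at 1252 CPM in cluster 16 and 868 in cluster 4 against 48.2 and 42.3 in clusters 2 and 1, the order seen for *Plod2* and *Loxl2* on that day. Over the 9 cluster and day groups the enzymes differed in how far they went with these lists. Pearson's r with the cell cycle list was 0.891 for *Loxl2*, 0.883 for *Plod3* and 0.862 for *P4ha1*, and lowest for *Plod1* at 0.394. With the contractile list it was 0.692 for *Loxl2* and 0.549 for *P4ha1*, and without the Day 3 group 0.897 and 0.833, while *Lox*, *Plod1* and *Loxl1* were at 0.318, 0.215 and -0.0359 over all 9. With the summed fibrillar collagen chains it was -0.874 for *Plod2*, whose r with the low oxygen list was 0.836. It was negative for every member, at -0.852 for *Loxl2*, -0.771 for *Plod3* and -0.729 for *P4ha1*, and nearest to 0 for *Plod1* at -0.0404. Without the Day 3 group it was positive for *Lox* (0.323), *Plod1* (0.371) and *P4ha2* (0.130) and negative for the others. The part of these lists, of depth and of the low oxygen list in the differences of the enzymes was not tested.

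For each member, the genes with the most similar level over the 9 groups were sought among 5294 genes with a mean of at least 20 CPM. Most alike to *P4ha1* were *B4galt2* (r = 0.996) and *Pgam1* (r = 0.993), the first a galactosyltransferase and the second a glycolytic enzyme. *Plod3* was most like *P4hb* (r = 0.991) and *Vcp* (r = 0.990), both of which act in protein handling at the endoplasmic reticulum. *Lox* was most like *Sar1a*, which serves export from the endoplasmic reticulum (r = 0.945), and *P4ha2* (r = 0.944), the one case of a member among the 2 genes most like another, and *P4ha2* was most like *Sar1a* (r = 0.966) and *Aldh1l2* (r = 0.961). *Plod2* was most like *Pdlim7* (r = 0.977) and *Ptov1* (r = 0.973), *Loxl1* like *Rnd1* (r = 0.991) and *Rpl39* (r = 0.990), and *Plod1* like the chemokine *Cxcl12* (r = 0.947) and *Ykt6* (r = 0.939). *Loxl2* was most like *Atp5b* (r = 0.992), *Loxl3* like *Nup93* (r = 0.984) and *P4ha3* like *Tmem19* (r = 0.975). These are the highest of 5294 values over 9 points that share 3 libraries, and they describe likeness only. The ranges behind them differed: *Plod2* spanned 13.9 to 990.0 CPM over the groups and *Plod1* 54.9 to 140.5 CPM.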

How the data were processed

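Pooled wound tissue was dissociated enzymatically, and unsorted cells were run on a droplet 3' platform with UMIs, 1 library per day. The deposited files hold the authors' raw UMI counts per gene and cell barcode, not normalized, and the submitters' processing notes name Cell Ranger 6.0.0 and mm10. The annotation release is not given in the sources used here. Symbols and gene positions came from a GENCODE annotation of GRCm38, the same assembly, which matched 32158 of 32285 identifiers. *Ero1a* was matched under its older symbol *Ero1l*.

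Barcodes under 200 genes or 500 UMIs, or over 10% mitochondrial UMIs, were dropped. Doublets were scored against simulated ones. The highest scores were removed to about 0.5 of a rate of 0.8% per 1000 barcodes, with cells tied at the cut included (99, 2115 and 965 cells from Day 3 to Day 14). The files shared 43, 19 and 111 barcodes between Days 3 and 7, 3 and 14, and 7 and 14. Clusters (Leiden, resolution 1.0, 30 components, 15 neighbours, 2000 genes) were formed on log-normalized counts without 212 genes. Among these were all members, the listed genes except *Ero1l*, collagens, and mitochondrial and ribosomal genes. A cluster could take a class name when at least 3 markers passed. No other class was to score above 0.6 of the best, except that a mesenchymal score was allowed beside a higher fibroblast score. This limit was set with the clusters in view but not yet the members' values. A cluster also stayed unnamed when its 10 leading genes held more markers of another class (cluster 14). Low UMIs with no marker of its own class among those genes had the same effect (cluster 11). Unnamed cells numbered 249, 1447 and 873 on Days 3, 7 and 14. The mesenchymal markers follow the study's own cluster genes.

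For each class and library, summed UMIs were divided by the class total (CPM), or by the sum of 5 fibrillar collagen chains. With 1 library per day no test was run. Exact Poisson and conditional binomial 95% intervals were checked on counts simulated from the Poisson model that they assume. Clopper-Pearson 95% intervals for shares were not checked in this way. All of these intervals cover counting error only. A 2-fold size rule was applied to genes with a mean of at least 5 CPM, and a count of 0 was set at 3 counts. Genes named were the 10 members, the fixed lists and the 2 genes most like each member. The members and lists were chosen with earlier results of these data known. Software was Python 3.11.15, numpy 2.4.6, scipy 1.17.1, pandas 2.3.3, matplotlib 3.10.9, igraph 0.11.9 and leidenalg 0.10.2. The alternatives concerned scaling, cell filters, doublets, clustering, class names, the collagen sum and the low-value filter, and their effect is given in the closing section.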

Additional observations from a re-analysis of the deposited data

Results flagged for a closer look

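For 5 members the difference between Days 3 and 7 had opposite directions in macrophage-like and fibroblast-like cells, with counting intervals that excluded 0 in both. The same count was not made over all genes. The difference between the classes was not tested, since there was 1 library per day. In macrophage-like cells the ratio (log2, Day 7 over Day 3) was 0.65 (0.40 to 0.90) for *Lox*, from 178 to 597 UMIs, against -1.79 in fibroblast-like cells. *Loxl1* was 1.65 against -0.37, and *Loxl2* 1.145 against -1.47. *Loxl3* was 0.49 against -1.22, and *Plod2* 0.55 against -1.55. In neutrophil-like cells *Lox* was 1.67, *Loxl1* 2.67, *Loxl2* 2.17 and *Plod2* 2.06, with intervals above 0. *Loxl3* there went from 0 to 9 UMIs. In dendritic cell-like cells *Lox* was 0.77, *Loxl1* 2.04 and *Loxl2* 1.03, with intervals above 0. The intervals of *Loxl3* (0.64) and *Plod2* (0.02) in that class held 0.

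Fibrillar collagen in macrophage-like cells went from 400.4 to 3468 CPM over the same step. Cluster 5 held 2063 of 2560 macrophage-like cells on Day 3 but 715 of 8508 on Day 7. Fibroblast-like cells made up 9.42% of the kept cells on Day 3 and 30.1% on Day 7, but held 56.0% and 63.3% of the UMIs. At the enzyme to collagen ratio of fibroblast-like cells, the UMIs found were 1.06 and 1.13 times the expected number for *Lox* on Days 3 and 7, 1.34 and 1.07 for *Loxl1*, 0.836 and 1.00 for *Loxl2* and 1.14 and 0.949 for *Plod2*. *Loxl3* was at 4.65 and 3.00 times, above the number that went with collagen on both days.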

How the results depend on the processing

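Each count of members past 2-fold stayed within 1.5 times its reported value in 175 of 175 recomputations. Of the values themselves, 176 of 750 recomputed levels and 150 of 600 recomputed log2 ratios lay outside the counting interval of the reported value. Of the 600 log2 ratios, 1 changed sign, *P4ha3* for Day 7 over Day 3 by CPM, at -0.04 in cells of 5000 to 20000 UMIs. The 2-fold side changed for 6 ratios. *Loxl2* for Day 14 over Day 7 lay between -1.02 and -0.84 and was under 2-fold in 7 settings, and *P4ha1* per collagen UMI in that step lay between -1.14 and -0.88 and was under it in 4. For Day 7 over Day 3, *Loxl3* and *Plod3* were just under 2-fold (-0.997 and -0.995) with scaling without the 50 most abundant genes, *P4ha2* was past it in 2 settings, down to -1.15, and *P4ha3* per collagen UMI was past it in the depth-matched cells, at -1.07. The cause was not tested. Cluster 14 had low UMIs and 7 fibroblast markers, but its leading genes held more markers of another class. The mast cell markers *Mcpt4*, *Cma1* and *Cpa3* were among them. Counting this cluster as fibroblast-like, leaving out cluster 10 and matching depth were chosen after seeing the data. No paired analysis was possible because there is 1 library per day and no result comes from a test. With 1 library per day and 410 fibroblast-like cells on Day 3, the spread between wounds is unknown.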
